A study of Mus musculus with 15 samples.

Results

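The 10 genes followed here belong to the antioxidant programme of the transcription factor NRF2 and were measured through bleomycin injury of the mouse lung. They are Nfe2l2, which encodes NRF2 itself, and its targets Gclc, Gclm, Slc7a11, Txnrd1, Srxn1, Nqo1, Hmox1, Gpx2 and Gpx3. The genes were chosen by symbol, so that 10 of the 33340 genes in the count table were members, and all 10 were among the 17457 genes that had enough counts to be tested. NRF2 is held in the cytoplasm by KEAP1, which feeds it to a CUL3 ubiquitin ligase for destruction. Oxidants and electrophiles modify KEAP1, NRF2 then accumulates, pairs with a small MAF protein and binds antioxidant response elements of genes that make glutathione, repair oxidized thiols, reduce quinones and degrade heme. Because NRF2 is controlled mainly as a protein, the mRNA of Nfe2l2 need not follow the mRNA of its targets. In the lung the programme is known for its response to inhaled oxidants and to redox-cycling drugs such as bleomycin.

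RNA-seq was done on polyadenylated RNA of the whole lung of C57BL/6 mice, adult males by the study's methods. Bleomycin, an antibiotic that breaks DNA and scars the lung, was given into the trachea at 5 U/kg. The groups were day 0 (4 libraries, controls by their titles) and days 7, 14 and 21 after bleomycin (4, 4 and 3 libraries), and the labels name no genetic change in any group. The series description gives 3 replicates at each time, which differs from the titles used here. Of the day 0 libraries, replicates 1 to 3 had no treatment by their treatment label, while replicate 4 was titled control but carried bleomycin there. Replicate 4 was kept in day 0, and no call of a member was lost when it was left out, while the other pathway genes called, described further on, went from 20 to 17 at day 7, from 34 to 36 at day 14 and from 39 to 33 at day 21. No vehicle-treated group was analysed here, so bleomycin, the procedure and time cannot be told apart. The labels do not say that libraries came from separate animals, so the p-values measure the spread between these samples. Whole lung also mixes cell types, and fewer cells of a type cannot be told apart from less RNA per cell.

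Total counts lay between 15652008 and 18020661 per library. Levels are given as CPM, the count scaled to the same normalised library size in every sample, in replicate order where single libraries are listed. Fold changes are on the log2 scale with their standard error (SE). A gene was called higher or lower at a Benjamini-Hochberg adjusted p under 0.05 in the edgeR quasi-likelihood test together with a fold change over 1.5, the study's own limits. The lung markers were present in every library, with alveolar type 2 markers summing to 4220 CPM or more and club cell markers to 1463 CPM or more. The share of counts from mitochondrial genes was 2.03% to 2.31% in day 0 replicates 1 and 2, all of day 7 and day 14 replicate 1, and 2.66% to 4.22% in the others.

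At day 7, 3 of the 10 members were higher than at day 0 and 0 were lower, where 8.78% of all genes tested were called higher and 7.36% lower. The genes called were Slc7a11, Srxn1 and Gclc. At day 14 the count was again 3 higher and 0 lower, now Slc7a11, Hmox1 and Srxn1, beside 12.0% and 11.2% of all genes. At day 21 there were 5 higher and 0 lower, Slc7a11, Hmox1, Srxn1, Nqo1 and Txnrd1, beside 12.4% and 10.1%. Only Slc7a11 and Srxn1 were called at all 3 times, while Nfe2l2, Gclm, Gpx2 and Gpx3 were called at none. The median log2 fold change of the members was 0.54, 0.39 and 0.53 at days 7, 14 and 21, and that of all genes tested was 0.01, 0.02 and 0.02. Every library lay above every day 0 library for 6, 4 and 6 members, against 17.6%, 16.8% and 19.4% of all genes. The 3 comparisons share the day 0 libraries.

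**Figure D1:**
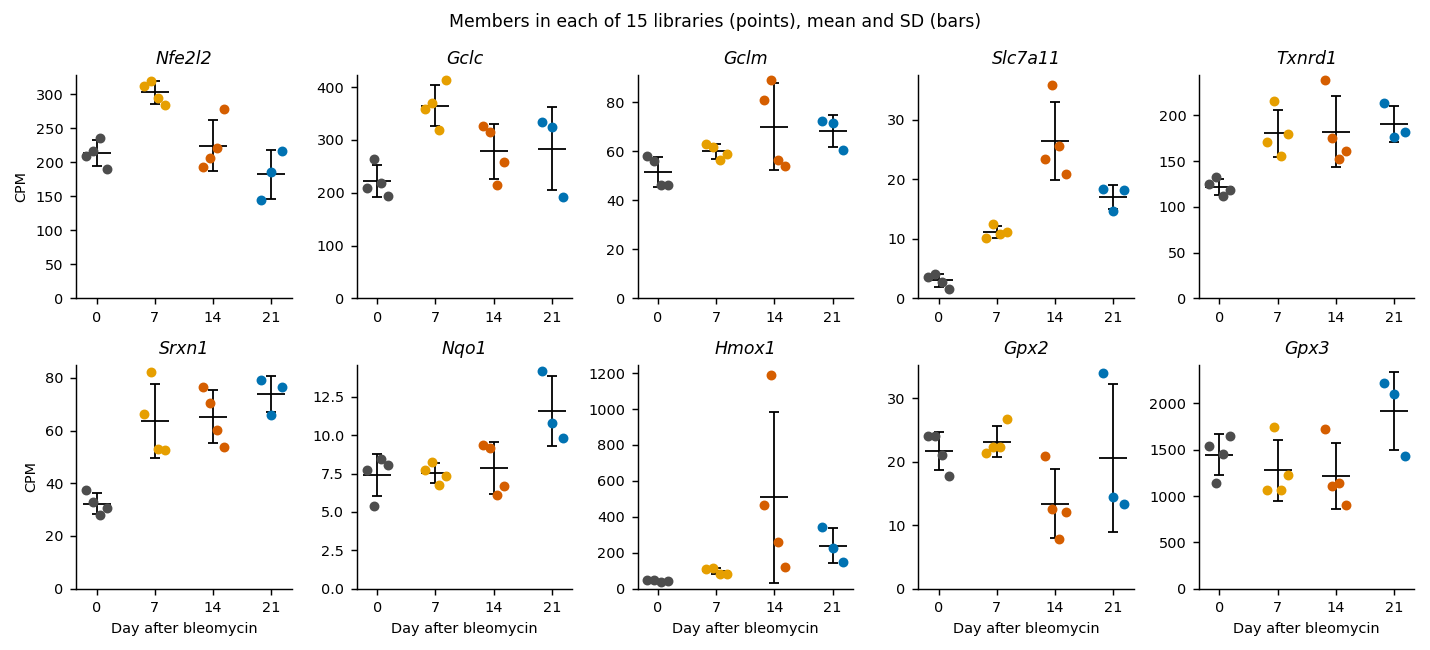
CPM of each member (one panel each, y axis from 0) in the 15 libraries by day after bleomycin (x axis). Points are libraries in replicate order and bars are the mean and SD. Slc7a11, Srxn1 and Txnrd1 lie above day 0 in every later library, Hmox1 spreads widely at day 14, and Nfe2l2 is highest at day 7.

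The sequence just before the start site is shown for the regulator and for the 3 thiol and cystine genes whose libraries never overlapped day 0. Promoters from RefSeq (GRCm38.p6) were found for 8 of the 10 members, all but Hmox1 and Gclc, and the 250 bases before the start were searched on both strands for the core of the antioxidant response element in its forms TGACNNNGC and TGAGNNNGC, where N is any base. The second form can contain the AP-1 site TGAGTCA, so a match does not tell the factors apart. TGATGCAA, the core of the response element that ATF4 binds in amino acid shortage, was searched as well. Capitals mark the matches.
Nfe2l2 (chr2:75704664-75704913, minus strand): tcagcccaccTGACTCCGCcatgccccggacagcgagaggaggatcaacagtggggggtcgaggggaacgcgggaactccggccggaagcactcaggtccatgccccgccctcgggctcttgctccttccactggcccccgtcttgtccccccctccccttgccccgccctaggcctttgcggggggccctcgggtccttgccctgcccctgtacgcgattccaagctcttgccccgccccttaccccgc
Slc7a11 (chr3:50443614-50443863, minus strand): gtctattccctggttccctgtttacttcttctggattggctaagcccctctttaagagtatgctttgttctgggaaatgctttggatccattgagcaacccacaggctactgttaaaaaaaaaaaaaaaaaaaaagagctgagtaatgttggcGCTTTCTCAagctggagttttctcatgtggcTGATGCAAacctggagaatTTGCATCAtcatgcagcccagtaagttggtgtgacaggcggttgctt
Srxn1 (chr2:152105274-152105523, plus strand): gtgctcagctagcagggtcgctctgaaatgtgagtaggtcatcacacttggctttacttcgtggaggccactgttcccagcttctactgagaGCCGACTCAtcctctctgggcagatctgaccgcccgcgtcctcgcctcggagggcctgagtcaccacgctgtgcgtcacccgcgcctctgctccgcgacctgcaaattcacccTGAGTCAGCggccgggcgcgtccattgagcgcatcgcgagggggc
Txnrd1 (chr10:82858956-82859205, plus strand, the second of its 3 listed promoters, inside the gene body of the longest form): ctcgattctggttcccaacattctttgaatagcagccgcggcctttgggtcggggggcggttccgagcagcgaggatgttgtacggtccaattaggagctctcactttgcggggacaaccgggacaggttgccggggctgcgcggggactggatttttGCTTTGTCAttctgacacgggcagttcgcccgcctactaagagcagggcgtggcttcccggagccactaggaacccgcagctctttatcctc

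Of the 10 promoters listed for these 8 members, 5 held a core of either form, 1 each of Nfe2l2, Gclm, Slc7a11, Txnrd1 and Srxn1, where 23.0% of all 32841 promoters did. In Srxn1 there were 2 matches, beginning 158 and 45 bases before the start, and the nearer one contains TGAGTCA. Slc7a11 held 1 antioxidant core, 97 bases before the start, and 2 copies of TGATGCAA on opposite strands, 66 and 47 bases before it. That ATF4 core was found in 0.792% of all promoters and in none of the other 7 members with a listed promoter. Nfe2l2 held a core 240 bases before its start, and Txnrd1 held one 92 bases before. The windows of Nqo1, Gpx2 and Gpx3 held none of these letters, which says nothing of elements farther away. A match is a description of sequence and not of binding.

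Nfe2l2 (ENSMUSG00000015839, chr2:75675513-75704641) was highest at day 7, but its difference from day 0 stayed under 1.5-fold at every time. Its CPM was 209.5, 217, 236 and 191 at day 0 and 313, 321, 295 and 284 at day 7. It was 194, 206, 221 and 278 at day 14 and 144, 186 and 217 at day 21. All 4 day 7 libraries stood above every other library of the series, and the later libraries overlapped day 0. At day 7 the log2 fold change was 0.50 ± 0.14 (adjusted p = 0.0142, 1.42-fold), so that it passed the p but not the fold limit. The adjusted p was 0.0601 without day 0 replicate 4 and 0.0711 when the mitochondrial share entered the fit. At day 14 it was 0.07 ± 0.13 (adjusted p = 0.705) and at day 21 −0.23 ± 0.15 (adjusted p = 0.261). Between days 7 and 21 the fall was called, by 0.73 ± 0.15 on the log2 scale (adjusted p = 0.0074), with no overlap between the 2 groups.

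Of the 7 regulators around NRF2, 0 were called at days 7 and 14 and 1 at day 21. Of all genes tested, 16.1%, 23.1% and 22.5% were called in either direction at days 7, 14 and 21. Keap1, the sensor that holds NRF2, was at 50.7 ± 6.4, 56.8 ± 2.9, 53.7 ± 2.1 and 52.7 ± 5.3 CPM (mean ± SD) at days 0, 7, 14 and 21 (smallest adjusted p = 0.236). Maff, a small MAF partner, was called at day 21 (log2 fold change 0.61 ± 0.20, adjusted p = 0.0284), after 0.53 ± 0.18 and 1.44-fold at day 14 (adjusted p = 0.0386), although its day 0 and day 21 libraries overlapped and the call was lost in 8 of 17 other fits. The ligase subunit Cul3 and the related factor Nfe2l1 had no adjusted p under 0.501. For Bach1, which represses the same elements, the nearest approach was at day 14 (−0.38 ± 0.14, adjusted p = 0.0518). Mafg had its lowest adjusted p, 0.0505, at day 7 (−0.35 ± 0.13), and Mafk its own, 0.111, also at day 7. Keap1 overlaps the antisense gene Gm16754 by 510 bases, and the strand setting of the counting was not stated. Nfe2l2 counts per Keap1 count, a ratio no scaling can alter, averaged 4.25 ± 0.59 at day 0 and 5.33 ± 0.10 at day 7. The ratio was 4.21 ± 0.82 at day 14 and 3.5 ± 0.91 at day 21.

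Slc7a11 (ENSMUSG00000027737, chr3:49892526-50443614) encodes the light chain of the cystine and glutamate exchanger xCT, which brings in the cystine from which glutathione is made. Its CPM was 3.62, 4.11, 2.67 and 1.62 at day 0, from 29 to 68 counts a library. It was 10.2, 12.6, 10.9 and 11.2 at day 7, then 23.4, 35.9, 25.7 and 20.9 at day 14, and 18.3, 14.8 and 18.2 at day 21. Every library after bleomycin lay above every day 0 library, and day 14 lay above day 7 and day 21 without overlap. The log2 fold change against day 0 was 1.90 ± 0.24 (3.73-fold, adjusted p = 9.13e-05) at day 7. It was 3.14 ± 0.24 (8.82-fold, adjusted p = 9.05e-07) at day 14 and 2.51 ± 0.25 (5.69-fold, adjusted p = 8.25e-06) at day 21. The rise from day 7 to day 14 was itself called (1.24 ± 0.22, adjusted p = 0.00725), and the step from day 14 to day 21 was not (−0.63 ± 0.24, adjusted p = 0.406). Among libraries under 2.5% mitochondrial the day 7 value was 1.52, and among those over 3.5% the day 14 value was 3.68, both still called.

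Gclc (ENSMUSG00000032350, chr9:77754535-77794485) and Gclm (ENSMUSG00000028124, chr3:122245557-122270732) encode the catalytic and the modifier subunit of glutamate-cysteine ligase, the first and limiting enzyme of glutathione synthesis. Gclc was at 209.6, 264, 219 and 194 CPM at day 0 and at 358, 370, 319 and 413 CPM at day 7. All 4 day 7 libraries were above day 0, and the rise was called (0.72 ± 0.18, 1.65-fold, adjusted p = 0.00884), but not when the mitochondrial share entered the fit (0.65, adjusted p = 0.0711). At day 14 Gclc stood at 326, 315, 214 and 259 CPM and at day 21 at 334, 325 and 192 CPM, overlapping day 0 at both times. Neither later value was called (0.33 ± 0.18, adjusted p = 0.164, and 0.36 ± 0.19, adjusted p = 0.172).

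Gclm was at 58.0, 55.9, 46.2 and 46.2 CPM at day 0 and 63.1, 61.8, 56.3 and 58.7 CPM at day 7. It was 80.9, 89.1, 56.2 and 54.0 CPM at day 14 and 72.3, 71.6 and 60.7 CPM at day 21. Only the day 21 libraries were all above day 0, and the day 14 libraries formed a high and a low pair. The log2 fold changes were 0.22 ± 0.15 (adjusted p = 0.298), 0.44 ± 0.15 (adjusted p = 0.0318, 1.36-fold) and 0.40 ± 0.16 (adjusted p = 0.0674), and none was called. Exons of Gclm overlap Gm17494 on the other strand by 296 bases and the pseudogene Gm6061 by 244 bases, so its counts are uncertain by what those genes took. Per Gclc count there were 0.235 ± 0.031 Gclm counts at day 0 and 0.165 ± 0.016 at day 7. The ratio was 0.251 ± 0.031 at day 14 and 0.251 ± 0.056 at day 21. The day 7 ratio was the lowest of the 4, and its largest library (0.176) was under the smallest of day 0 (0.211).

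Srxn1 (ENSMUSG00000032802, chr2:152105516-152111376) encodes sulfiredoxin, which restores overoxidized peroxiredoxins. Its CPM was 37.3, 33.0, 27.9 and 30.7 at day 0 and 66.3, 82.3, 53.1 and 52.6 at day 7. At day 14 it was 76.6, 70.4, 60.3 and 53.9, and at day 21 79.3, 66.0 and 76.5. The later libraries all lay above day 0 and overlapped one another. The rise was called at each time, by 0.98 ± 0.15 (adjusted p = 0.000487), 1.02 ± 0.15 (adjusted p = 0.000161) and 1.20 ± 0.16 (adjusted p = 8.79e-05), which is 1.97-fold to 2.30-fold. No difference between later days was called, and the call against day 0 held in all 19, 19 and 17 other fits run.

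Txnrd1 (ENSMUSG00000020250, chr10:82833951-82897712) encodes the cytosolic thioredoxin reductase, a selenoenzyme that keeps thioredoxin reduced. It was at 125, 132, 112 and 119 CPM at day 0 and at 171, 216, 155 and 180 CPM at day 7. It was at 238, 176, 153 and 161 CPM at day 14 and at 214, 176 and 182 CPM at day 21. No later library overlapped day 0. The log2 fold changes of 0.57 ± 0.14 (adjusted p = 0.00948) and 0.58 ± 0.14 (adjusted p = 0.00552) at days 7 and 14 passed the p but came to 1.48-fold and 1.49-fold, and 0.64 ± 0.15 (1.56-fold, adjusted p = 0.00468) at day 21 was called. The day 21 value was 0.52 without day 21 replicate 1 and 0.58 without day 0 replicate 3, both under 1.5-fold. The day 7 value was called in 2 of 19 alternatives and the day 14 value in 5 of 19. Both counts include the fit as reported with the fold limit dropped. At day 7 the adjusted p was 0.110 when the mitochondrial share entered the fit. No difference between days 7, 14 and 21 was called (adjusted p at least 0.769).

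Hmox1 (ENSMUSG00000005413, chr8:75093621-75100589) encodes heme oxygenase 1, which opens heme to release iron, carbon monoxide and biliverdin. Its CPM was 48.0, 49.0, 38.3 and 40.6 at day 0 and 111, 112, 78.4 and 83.6 at day 7. It was 464, 1190, 259 and 120 at day 14 and 341, 227 and 146 at day 21. Every later library lay above day 0, and the day 14 libraries spanned 9.89-fold among themselves, the widest spread of any member at any day. The log2 fold change was 1.13 ± 0.48 (adjusted p = 0.0952) at day 7 and was not called in the fit of all days, in which all groups share 1 estimate of the spread. It was called in 4 of 19 other fits, among them that of days 0 and 7 alone (1.10, adjusted p = 0.00028) and that of libraries under 2.5% mitochondrial (0.97, adjusted p = 0.00562). At day 14 it was 3.53 ± 0.52 (11.6-fold, adjusted p = 0.000139) and at day 21 2.44 ± 0.52 (5.41-fold, adjusted p = 0.00258), both called in every other fit run. Without day 14 replicate 2, the library at 1190 CPM, the day 14 value was 2.65 and still called. The difference between days 14 and 7 was called (2.40 ± 0.49, adjusted p = 0.0146). It was 1.55 and still called (adjusted p = 0.0379) without day 14 replicate 2, and was not called when the mitochondrial share entered the fit (2.32, adjusted p = 0.0811).

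Markers of monocyte-derived macrophages, cells that take up red cells and heme, were higher after bleomycin, as Hmox1 and Slc7a11 were. The 7 markers Cd68, Adgre1, C1qa, C1qb, Trem2, Gpnmb and Spp1 summed to 207 to 272 CPM at day 0 and 962 to 1652 a week after bleomycin. The sum was 2100 to 5617 CPM at day 14 and 2072 to 5366 CPM at day 21. All 7 were called higher at each of the 3 times. At day 14, replicates 1 and 2 had the highest marker sums (5617 and 3413 CPM) and also the highest Hmox1 and Gclm. The library with the most Hmox1 was not the one with the most marker RNA. Slc7a11 was 23.4 CPM in day 14 replicate 1, under the 35.9 and 25.7 CPM of replicates 2 and 3. At day 21, replicate 1 had the highest marker sum and the highest Hmox1 (5366 and 341 CPM). Replicate 3 of that day had 4910 marker CPM with the lowest Hmox1 (146 CPM), and replicate 2 had 2072 with 227 CPM of Hmox1. From day 14 to day 21, 0 of the 7 were called, with a median log2 difference of 0.04. Hmox1 was not called between those days either (−1.09 ± 0.52, adjusted p = 0.515), and its difference was −0.25 without day 14 replicate 2. Alveolar macrophage markers summed to 716 to 1047 CPM at day 0 and 477 to 1208 CPM a week after bleomycin. Their sum was 891 to 3403 CPM at day 14 and 1153 to 2394 CPM at day 21, and most of it was Chil3 (mean 1561 CPM at day 14). Of these 5 markers 0, 1 and 0 were called higher and 2, 1 and 2 lower at days 7, 14 and 21, and Krt79 went from a mean of 34.9 to 1.55 CPM at day 14. The libraries ranked by this sum as by Hmox1 at days 7 and 14 but not at days 0 and 21. Of the 5 fibroblast markers, the collagens Col1a1 and Col1a2 and Lum were called higher at each time, while Pdgfra and Dcn were not called at any of them. The fibroblast sum was 995 to 1464 CPM at day 0 and 2436 to 10039 CPM later. Red cell markers summed to 1161 to 3807 CPM at day 0 and to 365 to 1561 CPM later. The part of cell composition in these results was not tested.

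**Figure D2:**
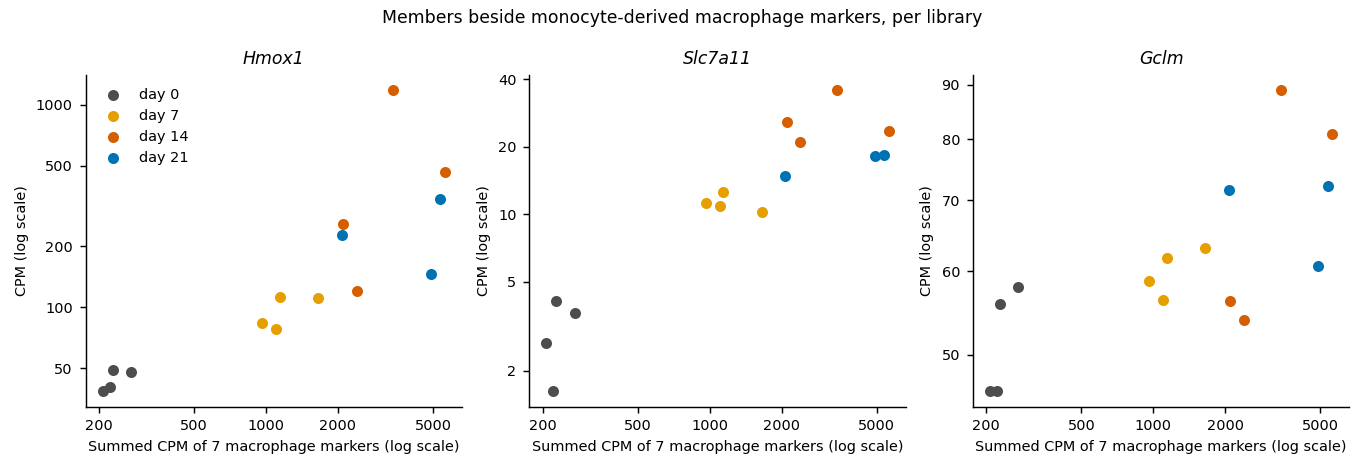
CPM of Hmox1, Slc7a11 and Gclm (y axes, log scale) against the summed CPM of the 7 monocyte-derived macrophage markers (x axis, log scale), with 1 point per library coloured by day. The day 0 libraries lie at 207 to 272 marker CPM and all later ones at 962 or more, and Hmox1 at day 14 runs from 120 to 1190 CPM.

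Nqo1 (ENSMUSG00000003849, chr8:107388225-107403206), the quinone reductase often used as a readout of NRF2, had the second lowest level per length of the members at day 0, above Slc7a11. Its CPM was 7.70, 5.38, 8.44 and 8.09 at day 0, from 89 to 145 counts, and 7.76, 8.26, 6.76 and 7.31 at day 7. It was 9.39, 9.18, 6.12 and 6.70 at day 14 and 14.2, 10.8 and 9.82 at day 21. Day 0 and days 7 and 14 overlapped, and the 3 day 21 libraries lay above all others. The log2 fold change was 0.02 ± 0.19 (adjusted p = 0.944) at day 7 and 0.08 ± 0.19 (adjusted p = 0.771) at day 14. At day 21 it was 0.64 ± 0.20 (1.56-fold, adjusted p = 0.0262). That call was lost in 6 of 17 other fits, among them 0.44 (adjusted p = 0.178) without day 21 replicate 1, 0.48 (adjusted p = 0.0910) without day 0 replicate 2, and 0.61 (adjusted p = 0.0631) in a fit of the 2 days alone. The call was also lost with no filter on low counts (0.60, adjusted p = 0.0671), without day 0 replicate 1 (0.63, adjusted p = 0.0574) and without day 21 replicate 2 (0.65, adjusted p = 0.0562). The cardiac muscle markers Myh6, Actc1, Tnnt2 and Myl7 summed to 663 CPM in day 21 replicate 1. They summed to 11.6 and 20.1 CPM in replicates 2 and 3 of that day. The part of cardiac muscle in the Nqo1 values was not tested.

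The glutathione peroxidases Gpx2 (ENSMUSG00000042808, chr12:76792333-76795554), an enzyme of epithelia, and Gpx3 (ENSMUSG00000018339, chr11:54902453-54910377), which is secreted into plasma, were called at no time in the fit of all libraries. Gpx2 was at 24, 24.1, 21.0 and 17.7 CPM at day 0 and 21.4, 22.3, 22.3 and 26.8 CPM at day 7. It was at 20.9, 12.6, 7.84 and 12.1 CPM at day 14 and 34, 14.5 and 13.3 CPM at day 21. At day 14, 3 of 4 libraries, and at day 21, 2 of 3, were below all of day 0, while day 14 replicate 1 and day 21 replicate 1 were not. The log2 fold change was 0.10 ± 0.29 at day 7 (adjusted p = 0.837), −0.70 ± 0.29 at day 14 (adjusted p = 0.0778) and −0.08 ± 0.31 at day 21 (adjusted p = 0.879). The day 14 value was called lower in 5 of 19 other fits. These were DESeq2 (−0.71, adjusted p = 0.0471), no filter on low counts (−0.72, adjusted p = 0.0404), the replicate number as a block (−0.77, adjusted p = 0.0251), libraries over 3.5% mitochondrial (−0.84, adjusted p = 0.0463) and without day 14 replicate 1 (−1.02, adjusted p = 0.0143). The day 21 value was −0.68 and not called without day 21 replicate 1. Club cell markers, which belong to the airway epithelium, summed to 27191 to 33798 CPM at day 0 and 9396 to 12095 a week after bleomycin. Later sums were 2972 to 7198 CPM at day 14 and 1463 to 5633 CPM at day 21. Multiciliated cell markers summed to 427 to 569 CPM at day 0, 287 to 481 at day 7, 107 to 208 at day 14 and 122 to 300.0 at day 21. Their highest sums at days 7, 14 and 21 were in the libraries with the most Gpx2. The same held for fibroblast markers (3973, 10039 and 7016 CPM) and cardiac muscle markers (557, 36.0 and 663 CPM). For club cell markers it held at days 7 and 21. Their highest sum at day 14 was in replicate 2 (7198 CPM), where Gpx2 was 12.6 CPM. The part of any of these lists in the Gpx2 values was not tested.

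Gpx3 had the highest level per length of the members at every time. Its CPM was 1539, 1138, 1459 and 1651 at day 0 and 1063, 1748, 1060 and 1232 at day 7. At day 14 it was 1729, 1103, 1144 and 899, and later 2225, 2100 and 1434 (day 21). All 3 later groups overlapped day 0. The log2 fold changes were −0.18 ± 0.22 (adjusted p = 0.582), −0.25 ± 0.22 (adjusted p = 0.419) and 0.41 ± 0.24 (adjusted p = 0.214).

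**Figure D3:**
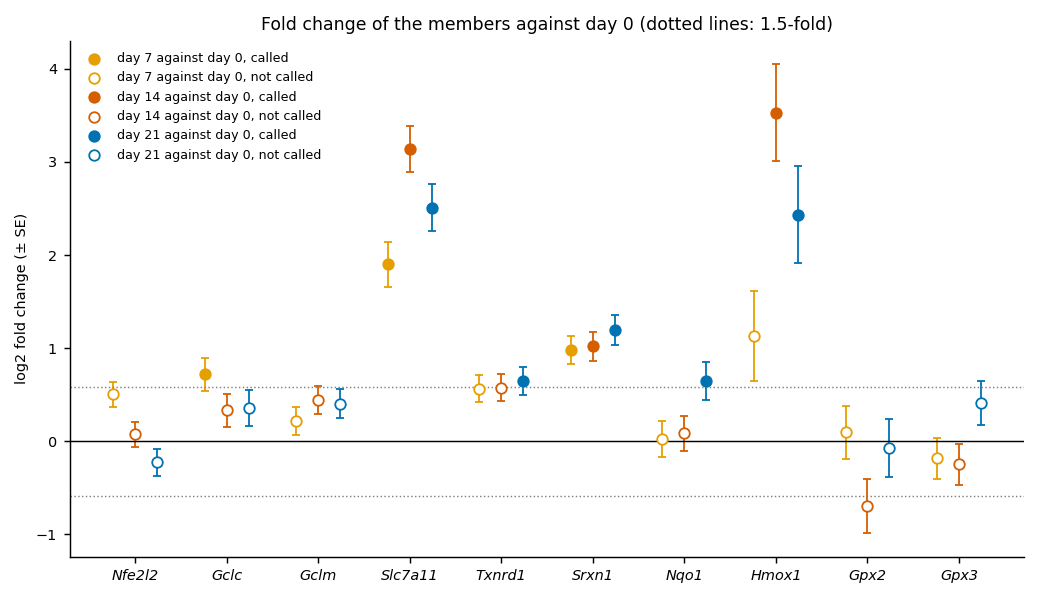
Log2 fold change (y axis, ± SE) of the 10 members against day 0 at days 7, 14 and 21, from the edgeR fit of all 15 libraries. Filled points were called and open points were not, and dotted lines mark 1.5-fold. The largest values are those of Hmox1 (3.53) and Slc7a11 (3.14) at day 14.

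Between later days, 2 of the 10 members were called higher at day 14 than at day 7, Hmox1 and Slc7a11, and 0 lower, where 2.77% and 3.23% of all genes were. Gpx2 was lower at day 14 than at day 7 in all 4 libraries without being called (−0.79 ± 0.29, adjusted p = 0.106), and without day 14 replicate 1 it was called lower (−1.09, adjusted p = 0.0283). With the mitochondrial share in the fit it was −0.59 (adjusted p = 0.443). From day 7 to day 21, 0 were called higher and 1 lower, Nfe2l2, beside 5.20% and 4.34%. With DESeq2 the count for days 7 and 21 was 2, with Nqo1 also higher, and when only those days were fitted it was 3, with Hmox1 and Slc7a11 higher beside Nfe2l2. Hmox1 was also called higher with no filter on low counts (1.28, adjusted p = 0.0433), and Gpx3 without day 7 replicate 2 (0.78, adjusted p = 0.0479). Between days 14 and 21, 0 members and 0% of all genes were called with edgeR, and DESeq2 also called 0 members. At an unadjusted p under 0.05, edgeR had 1714 of all genes there, and 3 members were among them. These were Slc7a11 (−0.63 ± 0.24), Nqo1 (0.56 ± 0.20) and Gpx3 (0.66 ± 0.24), with adjusted p of 0.406, 0.399 and 0.399.

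Per length, in CPM per kilobase of exon, Gpx3 led at day 0 with 798 ± 122, followed by Gclc (58.8 ± 8.1) and Nfe2l2 (56.3 ± 5.0), which did not differ beyond their spread. Hmox1 came next at 25.1 ± 3.0 and then Txnrd1 at 17.2 ± 1.2. Srxn1 (11.4 ± 1.4), Gclm (8.19 ± 1.0), Gpx2 (6.74 ± 0.95) and Nqo1 (4.77 ± 0.89) followed, of which Gclm and Gpx2 did not differ beyond their spread. Slc7a11 was last at 0.216 ± 0.079. At day 7 the order behind Gpx3 was Gclc (96.9 ± 10.2), Nfe2l2 (79.8 ± 4.4) and Hmox1 (55 ± 10.2). At day 14 Hmox1 was second with 290.2 ± 272, a spread as wide as its mean, and at day 21 it was again second with 136 ± 56. Gpx3 stayed first (1059 ± 235) and Slc7a11 last (1.23 ± 0.14) at day 21. Slc7a11 therefore had the lowest level per length at all 4 days while its difference from day 0 was among the largest. Its exon length of 13922 bases was the longest of the members, and by mean CPM it was lowest at day 0 alone.

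The other genes of the pathway were split in direction. Of 86 such genes, listed by role, 84 had enough counts to be tested, Gsta1 and Gstm3 being the exceptions. At day 7, 11 were called higher and 9 lower, beside 8.78% and 7.36% of all genes tested. At day 14 there were 18 and 16, beside 12.0% and 11.2%, and at day 21 17 and 22, beside 12.4% and 10.1%. The median log2 fold change was 0.10, 0.16 and 0.04. The list and the members were chosen with earlier results of these data known, so neither count is independent of them.

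Glutathione transferases and exporters, which conjugate electrophiles and pump them out, counted 3 higher and 3 lower of 14 at day 7, 2 and 5 at day 14 and 4 and 7 at day 21. At days 7, 14 and 21 the log2 fold changes of Gsta2 were −1.55, −2.95 and −3.42, those of Gsta3 −1.12, −2.20 and −1.92 and those of Gstm1 −1.0, −1.72 and −1.72, and each of these was called lower. The day 7 value of Gsta2 was not called when the mitochondrial share entered the fit (−1.34, adjusted p = 0.0603). These are members of families with near-identical copies, and reads with several alignments were left out by the authors, so their single-gene values are uncertain. In the group for quinones, aldehydes and epoxides, 2, 3 and 2 of 11 were higher and 2, 4 and 4 lower. Akr1b8, an aldo-keto reductase, rose by 1.75 ± 0.25, 1.89 ± 0.25 and 1.94 ± 0.26. Aldh1a1, a retinaldehyde dehydrogenase, fell by 0.69, 1.85 and 1.67, and the day 7 value was −0.57 and under 1.5-fold without day 7 replicate 2. Aldh3a1 fell by 2.24 at day 14 and 1.71 at day 21, and the day 21 value was −2.47 without day 21 replicate 1. Markers of several epithelial cell types were also called lower at days 7, 14 and 21. These were 2, 4 and 3 of 4 for club cells, 1, 4 and 3 of 4 for multiciliated cells and 0, 3 and 5 of 5 for alveolar type 2 cells. The sums were 27191 to 33798 CPM at day 0 and 1463 to 5633 CPM at day 21 for club cells, 427 to 569 and 122 to 299.98 CPM for multiciliated cells, and 25529 to 35472 and 4220 to 8890 CPM for alveolar type 2 cells. Of 5 alveolar type 1 markers, 1 was called higher at each time, and 1, 0 and 2 were called lower. Their sum was 2824 to 4185 CPM at day 0 and 3093 to 3655 CPM at day 7. Later it was 2836 to 4782 CPM at day 14 and 1515 to 3614 CPM at day 21. The part of these cell types in the falls was not tested.

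Peroxidases and dismutases outside the members counted 3 higher and 1 lower of 14 at day 7, 5 and 4 at day 14 and 4 and 4 at day 21. Catalase (Cat) fell by 0.65 ± 0.17, 1.32 ± 0.17 and 1.80 ± 0.19, the first of these also −0.57 and under 1.5-fold without day 7 replicate 2. The extracellular superoxide dismutase Sod3 fell by 0.71 ± 0.19 at day 14 and 1.02 ± 0.21 at day 21, the first of these not called among libraries over 3.5% mitochondrial (−0.77, adjusted p = 0.0559). Prdx1, a peroxiredoxin and a substrate of sulfiredoxin, rose by 1.04 ± 0.17 at day 14, and its day 21 value of 0.59 ± 0.18 (adjusted p = 0.0202) was called but fell under 1.5-fold or lost its p in 13 of 17 other fits. In the thioredoxin group 1, 0 and 0 of 7 were higher and 2, 2 and 2 lower. Txnip, the inhibitor of thioredoxin, fell by 0.96, 1.30 and 1.06, with a 606 base overlap with the antisense gene Gm15441. Txnrd3, the thioredoxin-glutathione reductase, fell by 0.73, 1.03 and 1.0. The day 7 call of Txnrd3 was lost in 6 of 19 other fits. Sesn2 rose by 0.67 ± 0.17 at day 7 and was at 0.14 ± 0.17 and −0.20 ± 0.19 after that, and its call was lost without day 0 replicate 1 (0.57) and without day 7 replicate 4 (0.54).

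Of 8 genes of glutathione metabolism outside the members, 1 was higher at each time and 1, 1 and 3 were lower. Glrx, glutaredoxin 1, rose by 0.89 ± 0.19, 1.0 ± 0.19 and 0.84 ± 0.20. Ggt1, which breaks down extracellular glutathione, fell by 1.91 ± 0.37 and 2.19 ± 0.38 at days 7 and 14. Its day 21 value of −1.11 ± 0.39 (adjusted p = 0.0434) was called but lost in 7 of 17 other fits. That value was −1.72 without day 21 replicate 1 and −0.83, not called, without day 21 replicate 2. Ggt5 fell by 1.22 ± 0.29 at day 21. Among 6 genes that supply NADPH, 0, 1 and 0 were called, and Pgd of the pentose phosphate path rose by 0.72 ± 0.13 at day 14, a value of 0.58 and under 1.5-fold without day 14 replicate 2.

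In heme and iron handling 0, 4 and 3 of 11 genes were higher and 0, 0 and 2 lower. Blvrb, a biliverdin reductase that acts after heme oxygenase, rose by 0.99 ± 0.16 at day 14 and 0.80 ± 0.17 at day 21. The transferrin receptor Tfrc fell by 1.10 ± 0.19 at day 21. Cd163, the macrophage receptor for hemoglobin and haptoglobin, was called at day 21 alone (1.52 ± 0.55, adjusted p = 0.0488) and lost that call in 9 of 17 other fits. Of 6 stress and autophagy targets, 1, 2 and 2 were higher and 0 lower. Gdf15, a stress cytokine, rose by 3.94 ± 0.23, 3.41 ± 0.23 and 2.60 ± 0.24, the largest rise of the wider list at each time. Trib3, a target of ATF4, rose by 0.76 ± 0.22 at day 14 and 0.87 ± 0.24 at day 21. The day 14 call of Trib3 was lost without day 0 replicate 3 (0.60) or day 14 replicate 2 (0.62), and its day 21 call without day 21 replicate 1 (0.74).

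**Figure D4:**
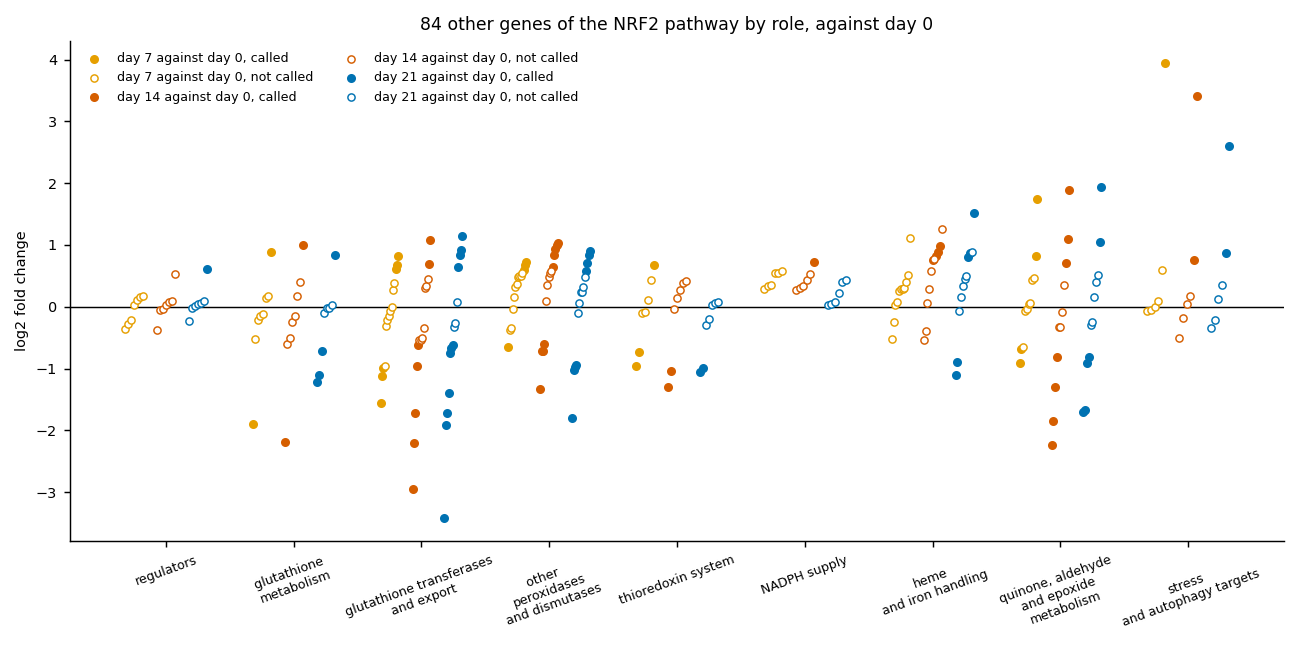
Log2 fold change (y axis) of the 84 other pathway genes against day 0, grouped by role (x axis) and coloured by day, with 1 point per gene, filled where called. Regulators lie between −0.38 and 0.61, glutathione transferases reach −3.42 and the stress gene Gdf15 reaches 3.94.

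Genes most like Nfe2l2 were taken as those whose log2 CPM, with day means removed, followed it most closely over the 15 libraries, among 12248 genes of at least 5 CPM. Among them were Scp2 (Pearson 0.933, Spearman 0.914), Dglucy (0.870 and 0.804), Pml (0.865 and 0.761) and Ube2v2 (0.851 and 0.718). The libraries share depth, cell makeup and RNA quality, so these values describe the libraries. At day 7 the mean CPM of Scp2 was 316 against 259 at day 0, and that of Dglucy was 35.0 against 11.6.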

How the data were processed

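The authors trimmed paired reads of polyadenylated RNA with Trim Galore, aligned them to GRCm38 (mm10) with HISAT2 2.1.0, left out reads with several alignments and counted the rest per gene with HTSeq 0.6.0. The deposited values are raw counts per gene. The annotation release and strand setting were not given in the sources used here. Genes were named from GENCODE M21, which matched 33267 of 33340 identifiers. The 15 libraries were grouped by their titles into days 0, 7, 14 and 21. All were fitted together with edgeR 4.0.16 (quasi-likelihood test, TMM scaling, filterByExpr, day as the only term, R 4.3.3), the p-values were adjusted over 17457 genes, and the common coefficient of biological variation was 22.8%. Alternatives were DESeq2 1.42.0, limma 3.58.1 (voom), other scalings and filters, fits of the compared days alone, a replicate block, the mitochondrial share and each library left out. The fit as reported without the fold limit was counted among these other fits as well. The fit was tested on simulated data. The members, the pathway and marker lists and the tests were chosen with earlier results of these data known. Named genes were all members, all regulators, up to 3 called genes of largest change per role, and the 5 most like Nfe2l2, of which 1 is not reported here.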

Additional observations from a re-analysis of the deposited data

Results flagged for a closer look

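In 6 of 114 groups of 4 libraries, 1 library stood far from the other three by Dixon's test, and chance alone gives about 5% of groups. Among the members this was Gpx2 at day 7, at 26.8 CPM in replicate 4 against 21.4 to 22.3 CPM in the others. That library also had 557 CPM of cardiac muscle markers (24.1 to 49.6 in the others). Its adipocyte markers summed to 91.4 CPM (7.65 to 21.1 in the others). The part of these tissues in the Gpx2 value was not tested. Day 0 replicate 3 accounted for 3 of the 6. It had 16.7 CPM of Akr1b8 (12 to 12.7 in the others), 540.5 CPM of Gstm1 (481 to 483) and 321 CPM of Nfe2l1 (419.5 to 431). At day 14, replicate 1 had 118 CPM of Cd163 (22.5 to 30.3), and without it the day 14 log2 fold change of Cd163 was 0.33 in place of 1.26. At day 7, replicate 3 had 21.0 CPM of Txnrd3 (11.4 to 12.9).

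Levels differed between later days for 3 members by the edgeR test. The log2 difference between days 14 and 7 was 2.40 for Hmox1 (2.32 and not called, adjusted p = 0.0811, when the mitochondrial share entered the fit) and 1.24 for Slc7a11, and that between days 21 and 7 was −0.73 for Nfe2l2.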

How the results depend on the processing

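Over 27 alternatives, 152 of 162 counts stayed within 1.5 times the value reported. The members called between days 21 and 7 were 2 with DESeq2, 2 with no filter and 3 when only those days were fitted, in place of 1. Between days 14 and 7 they were 1 when the mitochondrial share entered the fit, in place of 2. With the adjusted p alone, without the fold limit, 5 members were called at day 7 and 5 at day 14, and 33 pathway genes at day 7 (23 higher, 10 lower), where 25% of all genes passed at day 7 and 33.1% at day 14. When the mitochondrial share entered the fit, 13 pathway genes were called at day 7 (6 higher, 7 lower). With 1 library left out, the members called were 3 to 4 at day 7, 3 to 4 at day 14, 3 to 5 at day 21, 2 to 3 between days 14 and 7 and 1 to 2 between days 21 and 7. The 3 at day 21 came without day 21 replicate 1, where Nqo1 and Txnrd1 were lost, and the 2 between days 21 and 7 without day 7 replicate 2, where Gpx3 was gained. Of 2206 values of single genes, 2054 kept direction and side of the limits, 63 lost a call, 44 gained one and 45 changed sign, the last with adjusted p of at least 0.477. The causes were not tested.

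Signs turned for values near 0. Txnrd1 between days 14 and 7 was −0.00087 with total count scaling, −0.0010 with voom and −0.00061 with the replicate block. Nqo1 at day 7 was −0.0032 with RLE factors, −0.0033 with DESeq2, −0.012 with a mean of at least 1 CPM and −0.0058 with only 2 groups. When that share entered the fit, Gpx2 was −0.093 at day 7 and 0.083 between days 21 and 7, Nqo1 was −0.010 and Gpx3 0.0069 between days 14 and 7. Within libraries under 2.5% Gpx2 was −0.070 at day 7, and within those over 3.5% Nqo1 was −0.18 at day 14. With 1 library left out, values against day 0 ran from −0.68 to 0.11 for Gpx2 at day 21, −0.012 to 0.13 for Gpx2 at day 7, −0.044 to 0.12 for Nfe2l2 at day 14, −0.067 to 0.19 for Nqo1 at day 14 and −0.13 to 0.071 for Nqo1 at day 7. Against day 7 they ran at day 14 from −0.28 to 0.12 for Gpx3, −0.035 to 0.16 for Nqo1, −0.046 to 0.19 for Srxn1 and −0.14 to 0.11 for Txnrd1, and at day 21 from −0.76 to 0.033 for Gpx2 and −0.031 to 0.18 for Txnrd1. Between days 21 and 14 they ran from −0.12 to 0.22 for Gclc, −0.14 to 0.089 for Gclm and −0.035 to 0.21 for Txnrd1.

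Replicate numbers were shared by the labels of the groups, but no pairing of the libraries by number was evident. With 3 or 4 libraries a group, the check could not settle this. Correlations of same-numbered deviations ran from −0.244 to 0.397, and no comparison had every library closest to its own number. With the replicate block the members called were 4, 4 and 5 at days 7, 14 and 21, 3 between days 14 and 7 (Gpx2 was then lower, −0.88, adjusted p = 0.0406), 1 between days 21 and 7 and 0 between days 21 and 14, and the pathway genes 21, 35 and 35. Depth limits Slc7a11 and Nqo1 at day 0 most, at 29 to 68 and 89 to 145 counts a library.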
